A study of Mus musculus with 9 samples.

Results

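Transcripts of 6 genes known for helper and regulatory T cells, Cd4, Foxp3, Ikzf2, Ikzf4, Zbtb7b and Gata3, were followed across 3 populations sorted as CD8+ T cells from mouse melanoma. The list of genes was set by name with earlier results of these data known, and all 6 of 6 were found among the 56860 genes of the deposited count table and were among the 15292 that passed the filter on low counts. Messenger RNA was sequenced in bulk from untreated wild-type mice bearing B16 melanoma, a transplanted tumour line that is called B16-OVA in the sample labels and B16F10 in the design text. Cells were sorted by flow cytometry on CD8, on the inhibitory receptor PD-1 and on α2,6-linked sialic acid, a sugar at the ends of surface glycans. SiaLo_PD1pos stands for the population labelled Sia2,6loPD-1+CD8+, SiaHi_PD1pos for Sia2,6hiPD-1+CD8+ and SiaHi_PD1neg for Sia2,6hiPD-1−CD8+, with 3 libraries in each. The labels used here state neither the age and sex of the mice nor how many mice a library holds, and they do not say whether replicates came from separate tumours. The p-values therefore only set differences between groups against the spread of these libraries within groups, and that spread may be technical.

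CD4 is the co-receptor of T cells that read MHC class II, and in mice it is also made by plasmacytoid and some conventional dendritic cells. Zbtb7b encodes ThPOK, which fixes the CD4 lineage in the thymus, and Gata3 acts at several steps of T cell development, drives type 2 helper cells and is also used by CD8+ and innate lymphoid cells. Foxp3 defines regulatory T cells, Ikzf2 (Helios) is found in many of them and in subsets of CD8+ and NK cells, and Ikzf4 (Eos) works as a partner of Foxp3 in gene repression.

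Between the PD-1+ populations, Cd4 was 7.74-fold and Foxp3 10.1-fold lower in SiaLo_PD1pos than in SiaHi_PD1pos. Those were 2 of the 6 genes, against 1.40% of all tested genes called in that comparison, 0.268% higher and 1.13% lower. In SiaHi_PD1pos against SiaHi_PD1neg, Cd4 was 9.73-fold lower, Foxp3 2.28-fold higher and Gata3 4.09-fold higher per library total, the last 2 turning direction under a scaling to T cell transcripts, against 40.2% of all tested genes called, 21.0% higher and 19.2% lower. In SiaLo_PD1pos against SiaHi_PD1neg, Cd4, Foxp3 and Ikzf2 were lower and Gata3 was higher, with Gata3 turning under that scaling, against 39.4% of all tested genes called, 20.5% higher and 18.9% lower. Ikzf4 and Zbtb7b passed the test in no comparison at the main settings. A gene counted as called when its p from edgeR's quasi-likelihood test, with Benjamini-Hochberg adjustment for all 15292 genes, was below 0.05. Each pair of comparisons shares 3 libraries, so they are not independent of each other.

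Library totals ran between 9714020 and 15030442 counts, and the sorted cell type was checked first. Cd8a, a chain of the CD8 co-receptor, averaged 1674 CPM (counts over the TMM-scaled library total) in SiaLo_PD1pos, 1419 CPM in SiaHi_PD1pos and 444.4 CPM in SiaHi_PD1neg. Cd8b1, the other chain, averaged 801.3 CPM in SiaLo_PD1pos, 764.1 CPM in SiaHi_PD1pos and 254.8 CPM in SiaHi_PD1neg. Cd3e, a chain of the T cell receptor complex, averaged 417.1, 359.7 and 61.2 CPM in the same order of groups. The lower share of T cell transcripts in SiaHi_PD1neg was accompanied by higher counts of dendritic cell, macrophage and melanoma genes. In bulk samples fewer cells of a type and less RNA per cell cannot be told apart.

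Foxp3 and Gata3 were the 2 genes called higher per library total in SiaHi_PD1pos than in SiaHi_PD1neg, a direction that the scaling to T cell transcripts turned, and the 250 bases before each start are shown for that reason. The sequences come from RefSeq on GRCm38.p6, whose table matched 3 of the 6 genes and holds 2 starts for Foxp3, of which the upstream one is shown. The Foxp3 sequence lies at chrX:7579426-7579675 on the plus strand and the Gata3 sequence at chr2:9878601-9878850 on the minus strand. Capitals mark matches on either strand to TGTGGN, known as the core of RUNX factor sites, to GATAA, known from zinc-finger factors such as the Gata3 protein, to GGAAA, known from NFAT sites, and to TATAAA, known from the core promoter. Matches that adjoin run on as 1 block of capitals.
Foxp3: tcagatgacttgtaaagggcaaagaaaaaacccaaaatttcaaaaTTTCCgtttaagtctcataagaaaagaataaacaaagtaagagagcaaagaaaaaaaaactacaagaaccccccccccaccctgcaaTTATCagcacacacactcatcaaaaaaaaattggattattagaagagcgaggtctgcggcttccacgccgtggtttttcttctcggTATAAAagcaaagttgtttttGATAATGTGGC
Gata3: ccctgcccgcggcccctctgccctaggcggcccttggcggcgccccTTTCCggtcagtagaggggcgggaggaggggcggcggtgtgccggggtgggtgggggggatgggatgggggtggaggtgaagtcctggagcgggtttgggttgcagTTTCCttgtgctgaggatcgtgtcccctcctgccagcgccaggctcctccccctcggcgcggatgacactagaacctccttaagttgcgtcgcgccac

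The Foxp3 sequence held 1 match to TGTGGN, in the last 6 bases before the start, 2 to GATAA, 1 to GGAAA and 1 to TATAAA. The Gata3 sequence held 2 matches to GGAAA and 0 to the other 3 motifs. Of 32851 mouse promoter windows of the same length, 49.2% held TGTGGN, 22.6% GATAA, 55.6% GGAAA and 12.4% TATAAA. The TATAAA match of Foxp3 lies 32 to 27 bases before the start. A match is a string of letters and no measure of binding.

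Cd4, the co-receptor gene, lies at chromosome 6, 124841655 to 124865184 on the minus strand, in the coordinates of the deposited table. It stood at 6.30, 3.39 and 2.85 CPM in the SiaLo_PD1pos libraries, 26.1, 40.4 and 32.3 CPM in SiaHi_PD1pos, and 284.9, 412.4 and 263.6 CPM in SiaHi_PD1neg. The 3 groups did not overlap, and every SiaHi_PD1neg library held more than any library of the PD-1+ groups. The SiaLo_PD1pos values rest on 94, 47 and 33 counts. The log2 fold change of SiaLo_PD1pos over SiaHi_PD1pos was -2.95 (SE 0.28; edgeR's quasi-likelihood test, adjusted p = 1.10e-04). Over SiaHi_PD1neg it was -3.28 (SE 0.26; adjusted p = 6.57e-07) in SiaHi_PD1pos and -6.24 (SE 0.31; adjusted p = 8.30e-09) in SiaLo_PD1pos. In each comparison the call held in all 9 fits that left out a library, the highest adjusted p being 0.00146 for the PD-1+ groups.

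**Figure D1:**
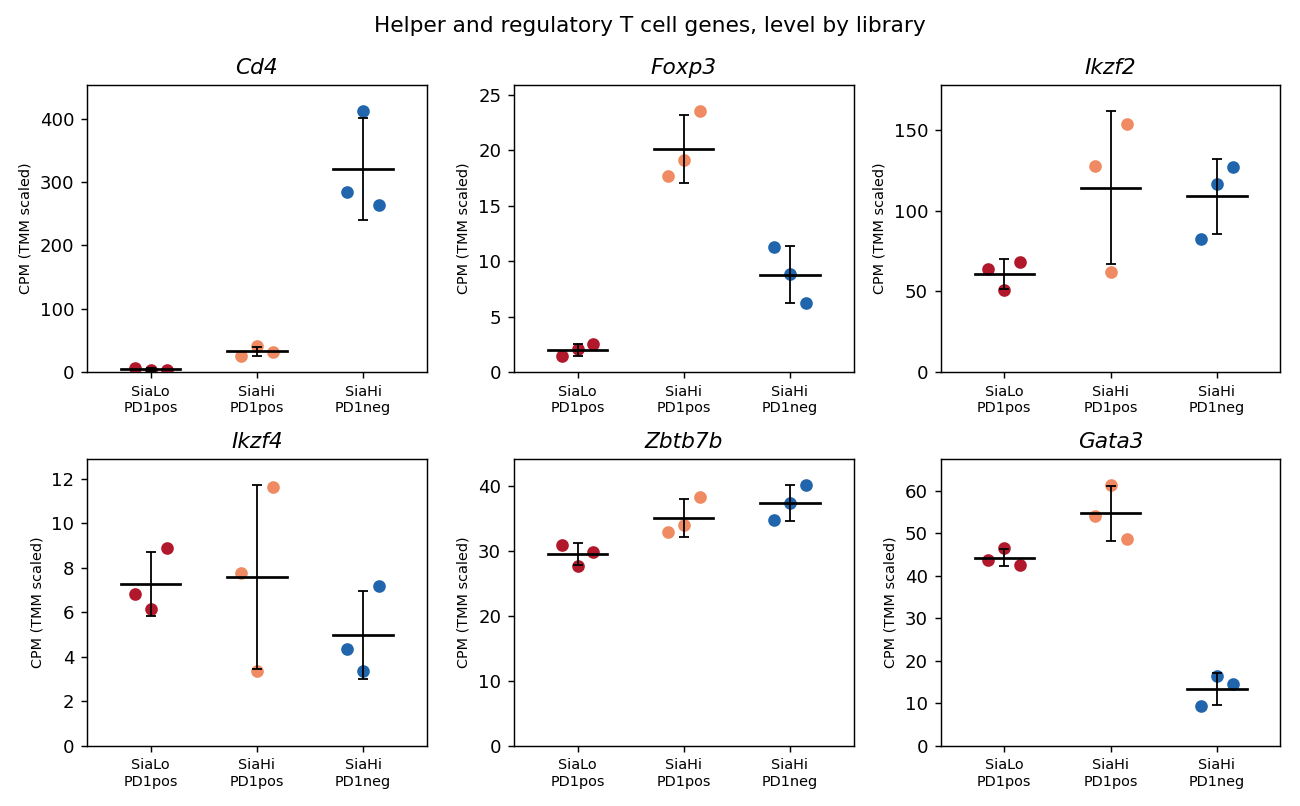
Level of the 6 genes in CPM with TMM scaling (vertical axes, linear, from 0) in each of 3 libraries of SiaLo_PD1pos, SiaHi_PD1pos and SiaHi_PD1neg; points are libraries, horizontal bars means and error bars SD. Cd4 steps up across the groups, Foxp3 is highest in SiaHi_PD1pos at 20.1 ± 3.05 CPM, and Gata3 is lowest in SiaHi_PD1neg at 13.4 ± 3.68 CPM.

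Summed levels of dendritic cell genes stepped up across the groups in the order of Cd4. The plasmacytoid sums differed little between the PD-1+ groups, where Bst2, Runx2 and Pacsin1 held most of them. These averaged 190.1, 128.4 and 50.3 CPM in SiaLo_PD1pos and 205.0, 103.1 and 68.0 CPM in SiaHi_PD1pos. By gene the difference was larger, with a list median log2 fold change of -2.02 in SiaLo_PD1pos over SiaHi_PD1pos. The summed level of 12 plasmacytoid dendritic cell genes was 375.5 to 440.1 CPM in SiaLo_PD1pos, 441.4 to 516.8 CPM in SiaHi_PD1pos and 3533 to 6631 CPM in SiaHi_PD1neg, and no gene of the list was at 0 in a whole group. Of those 12 genes, 5 were lower in SiaLo_PD1pos than in SiaHi_PD1pos, against 1.13% of all tested genes. All 12 were lower in either PD-1+ group than in SiaHi_PD1neg, against 19.2% in SiaHi_PD1pos and 18.9% in SiaLo_PD1pos. Siglech, a surface lectin that defines these cells, averaged 2.62 CPM in SiaLo_PD1pos, 15.0177 CPM in SiaHi_PD1pos and 888.5 CPM in SiaHi_PD1neg. For 17 genes of conventional dendritic cells and MHC class II, the summed levels were 2049 to 2425 CPM in SiaLo_PD1pos, 3096 to 5544 CPM in SiaHi_PD1pos and 18456 to 21056 CPM in SiaHi_PD1neg. The MHC class II genes H2-Aa, H2-Ab1, H2-Eb1 and Cd74, with Irf8, held most of these sums in each group. Cd74 alone averaged 684.1, 1377 and 6368 CPM in that order. Of the 17 genes, 9, 16 and 17 were lower in SiaLo_PD1pos than SiaHi_PD1pos, SiaHi_PD1pos than SiaHi_PD1neg, and SiaLo_PD1pos than SiaHi_PD1neg. Between the PD-1+ groups, 7 of the 12 and 8 of the 17 genes were not called. Log2 fold changes of SiaLo_PD1pos over SiaHi_PD1pos lay above 0 for 1 of the 12 and 2 of the 17. The part of these lists in the Cd4 differences was not tested.

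Foxp3, the defining factor of regulatory T cells, lies at chromosome X, 7439883 to 7461484 on the plus strand. It stood at 1.41, 2.09 and 2.51 CPM in SiaLo_PD1pos, 17.7, 19.1 and 23.5 CPM in SiaHi_PD1pos, and 11.3, 8.87 and 6.19 CPM in SiaHi_PD1neg. The groups did not overlap, and SiaHi_PD1pos was highest, unlike for Cd4. The counts behind these levels were 21 to 29 in the SiaLo_PD1pos libraries, 236 to 299 in SiaHi_PD1pos and 63 to 155 in SiaHi_PD1neg. The log2 fold change was -3.33 (SE 0.35; adjusted p = 2.30e-04) in SiaLo_PD1pos over SiaHi_PD1pos, and the call held in all 9 fits without a library. It was -2.14 (SE 0.34; adjusted p = 2.39e-04) in SiaLo_PD1pos over SiaHi_PD1neg, by the same quasi-likelihood test. SiaHi_PD1pos over SiaHi_PD1neg gave 1.19 (SE 0.31; adjusted p = 0.00836), a direction that turned to -0.87 (adjusted p = 0.0309) when libraries were scaled to T cell receptor and CD3 transcripts. Exons of Foxp3 overlap those of 4 annotated genes, Ppp1r3f, Gm36995, Flicr and Ccdc22, and no source used here says whether counting used strand. Those neighbours had at most 26 counts in any library, and Ccdc22 was at 0 in all 9. Such counts do not show how many reads of shared exons were left uncounted or assigned to Foxp3. The other members overlap at most 2 gene models each, with up to 42 counts in a library, and reads of such overlaps cannot be assigned with certainty.

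Within a library the ratio of Foxp3 to Cd4 does not move with library scaling. Per kilobase of exon it was 0.197, 0.544 and 0.774 in SiaLo_PD1pos, 0.597, 0.417 and 0.641 in SiaHi_PD1pos, and 0.0349, 0.0190 and 0.0207 in SiaHi_PD1neg. The PD-1+ groups overlapped, and the SiaLo_PD1pos libraries spread the most. An exact two-sided permutation test of the log2 ratios between the PD-1+ groups gave p = 0.8 over 3 libraries each, with a difference of -0.32 that became 0.26 without SiaLo_PD1pos replicate 1. That spread is too wide to say whether Cd4 and Foxp3 fell by equal factors. Against SiaHi_PD1neg the ratio was 22.7-fold higher in SiaHi_PD1pos and 18.2-fold higher in SiaLo_PD1pos, without overlap, each at an exact p = 0.1, the smallest that 3 against 3 can give.

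Ikzf2, which encodes Helios, lies at chromosome 1, 69570373 to 69726404 on the minus strand. It stood at 63.6, 50.6 and 68.1 CPM in SiaLo_PD1pos, 127.6, 61.8 and 153.8 CPM in SiaHi_PD1pos, and 82.6, 116.6 and 127.4 CPM in SiaHi_PD1neg. SiaHi_PD1pos replicate 2 was the low library of its group and fell within the range of SiaLo_PD1pos. The log2 fold change of SiaLo_PD1pos over SiaHi_PD1pos was -0.91 (95% interval -1.50 to -0.33; edgeR adjusted p = 0.171), which did not pass. Without SiaHi_PD1pos replicate 2 it was -1.19 and passed (adjusted p = 0.00633), while without SiaHi_PD1pos replicate 3 it was -0.64 and did not pass, and none of the 7 fits without another library passed. It also passed with no low-count filter, with DESeq2 (adjusted p = 0.0335) and with limma-voom, and missed the threshold under the other 6 alternatives. SiaHi_PD1pos replicate 2 had relatively fewer counts in long genes: its median deviation from its group was 0.20 (log2) over the 3823 shortest genes and -0.20 over the 3823 longest, to which Ikzf2, with 11613 exonic bases, and Ikzf4, with 6461, belong. SiaHi_PD1pos replicate 3 deviated the other way, by -0.14 over the shortest and 0.14 over the longest genes. The part of gene length in this difference was not tested.

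Over SiaHi_PD1neg, Ikzf2 was lower in SiaLo_PD1pos by 1.79-fold (log2 fold change -0.84, SE 0.27; adjusted p = 0.0249), and these groups did not overlap. The call was lost without SiaLo_PD1pos replicate 1 (adjusted p = 0.0551) or 2 (0.121) and without SiaHi_PD1neg replicate 2 (0.0797) or 3 (0.0999), in edgeR's quasi-likelihood test. SiaHi_PD1pos over SiaHi_PD1neg gave 0.073 (95% interval -0.50 to 0.65), with overlapping groups, and -1.96 (adjusted p = 4.76e-04) under the scaling to T cell receptor and CD3 transcripts.

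The ratio of Ikzf2 to Foxp3 per kilobase was 17.8, 9.53 and 10.7 in SiaLo_PD1pos, 2.85, 1.27 and 2.58 in SiaHi_PD1pos, and 2.88, 5.18 and 8.11 in SiaHi_PD1neg. The PD-1+ groups did not overlap, and every library held more Helios than Foxp3 transcript per kilobase. The ratio was 5.79-fold higher in SiaLo_PD1pos than in SiaHi_PD1pos, at an exact p = 0.1, the smallest possible with 3 against 3 libraries. It was 2.35-fold lower in SiaHi_PD1pos and 2.46-fold higher in SiaLo_PD1pos than in SiaHi_PD1neg, without overlap and at the same exact p.

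**Figure D2:**
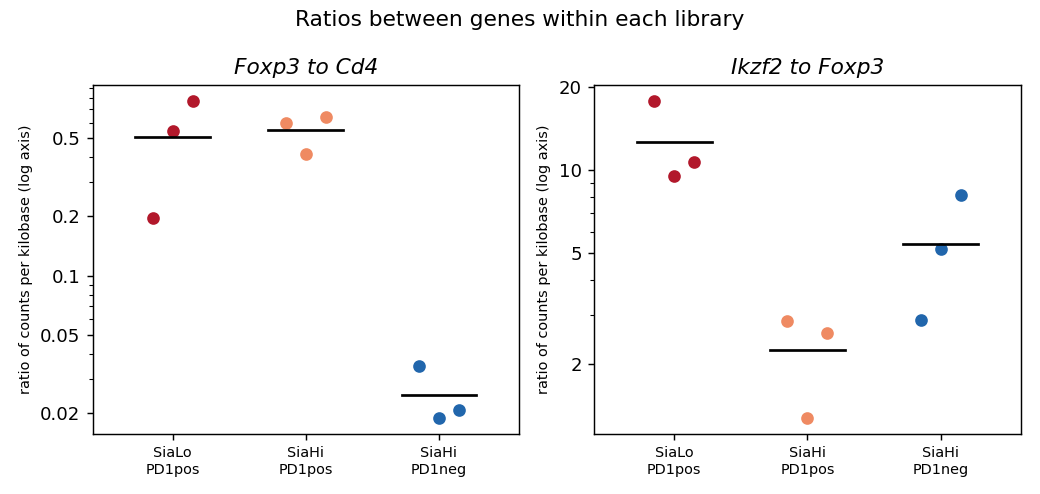
Ratios of counts per kilobase of exon within each library (log axes): Foxp3 to Cd4 on the left, Ikzf2 to Foxp3 on the right, for SiaLo_PD1pos, SiaHi_PD1pos and SiaHi_PD1neg; points are libraries and bars means. Foxp3 to Cd4 overlaps between the PD-1+ groups and lies at 0.0190 to 0.0349 in SiaHi_PD1neg, while Ikzf2 to Foxp3 is 9.53 or more in SiaLo_PD1pos and 2.85 or less in SiaHi_PD1pos.

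Ikzf4, which encodes Eos, lies at chromosome 10, 128466712 to 128505227 on the minus strand. It stood at 6.84, 6.14 and 8.91 CPM in SiaLo_PD1pos, 7.79, 3.38 and 11.6 CPM in SiaHi_PD1pos, and 4.37, 3.36 and 7.17 CPM in SiaHi_PD1neg, with overlap between all groups. Its log2 fold change was -0.061 (95% interval -1.04 to 0.92) in SiaLo_PD1pos over SiaHi_PD1pos, 0.62 (-0.37 to 1.62) in SiaHi_PD1pos over SiaHi_PD1neg and 0.56 (-0.44 to 1.55) in SiaLo_PD1pos over SiaHi_PD1neg. These intervals are wide. The first holds both no change and the -0.91 of Ikzf2 in that comparison, so such a fall could not be told from none. Both intervals over SiaHi_PD1neg exclude, per library total, a fall like the -0.84 of Ikzf2 in SiaLo_PD1pos, but not a rise of that size. Under the T cell transcript scaling the values over SiaHi_PD1neg turned to -1.40 (adjusted p = 0.0348) in SiaHi_PD1pos and -1.63 (adjusted p = 0.0176) in SiaLo_PD1pos.

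Zbtb7b, the gene of ThPOK, lies at chromosome 3, 89284951 to 89302083 on the minus strand. It stood at 31.0, 27.8 and 29.9 CPM in SiaLo_PD1pos, 33.0, 34.0 and 38.4 CPM in SiaHi_PD1pos, and 34.8, 37.4 and 40.3 CPM in SiaHi_PD1neg. The SiaLo_PD1pos libraries lay just under the other 2 groups without overlap, and the other 2 overlapped. The log2 fold change was -0.25 (95% interval -0.59 to 0.10; adjusted p = 0.830) in SiaLo_PD1pos over SiaHi_PD1pos, -0.093 (-0.43 to 0.25) in SiaHi_PD1pos over SiaHi_PD1neg and -0.34 (-0.68 to 0.0029; adjusted p = 0.108) in SiaLo_PD1pos over SiaHi_PD1neg. By edgeR's test with TMM scaling none of these passed. The last passed (-0.44, adjusted p = 0.0369) when genes needed at least 5 CPM in 3 libraries. Under the T cell transcript scaling Zbtb7b was lower than in SiaHi_PD1neg by 4.53-fold in SiaHi_PD1pos (log2 fold change -2.18, adjusted p = 2.35e-06) and by 5.75-fold in SiaLo_PD1pos (-2.52, adjusted p = 7.13e-07). Its level per 1000 counts of T cell receptor and CD3 genes averaged 8.62 in SiaLo_PD1pos, 10.96 in SiaHi_PD1pos and 49.6 in SiaHi_PD1neg, so the narrow range holds per library total.

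Gata3 lies at chromosome 2, 9861889 to 9894845 on the minus strand. It stood at 43.8, 46.4 and 42.5 CPM in SiaLo_PD1pos, 54.1, 61.4 and 48.6 CPM in SiaHi_PD1pos, and 9.25, 16.3 and 14.5 CPM in SiaHi_PD1neg. All 3 groups stood apart, and every PD-1+ library held more than any PD-1− library. The log2 fold change over SiaHi_PD1neg was 2.03 (SE 0.21; adjusted p = 6.60e-06) in SiaHi_PD1pos and 1.73 (SE 0.21; adjusted p = 2.16e-05) in SiaLo_PD1pos, by edgeR's test, with the calls kept in all 9 fits without a library. Both turned under the T cell transcript scaling, to -0.084 (adjusted p = 0.746) and -0.47 (adjusted p = 0.0884). Between the PD-1+ groups it was -0.31 in SiaLo_PD1pos over SiaHi_PD1pos (95% interval -0.73 to 0.12; adjusted p = 0.836), which did not pass.

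**Figure D3:**
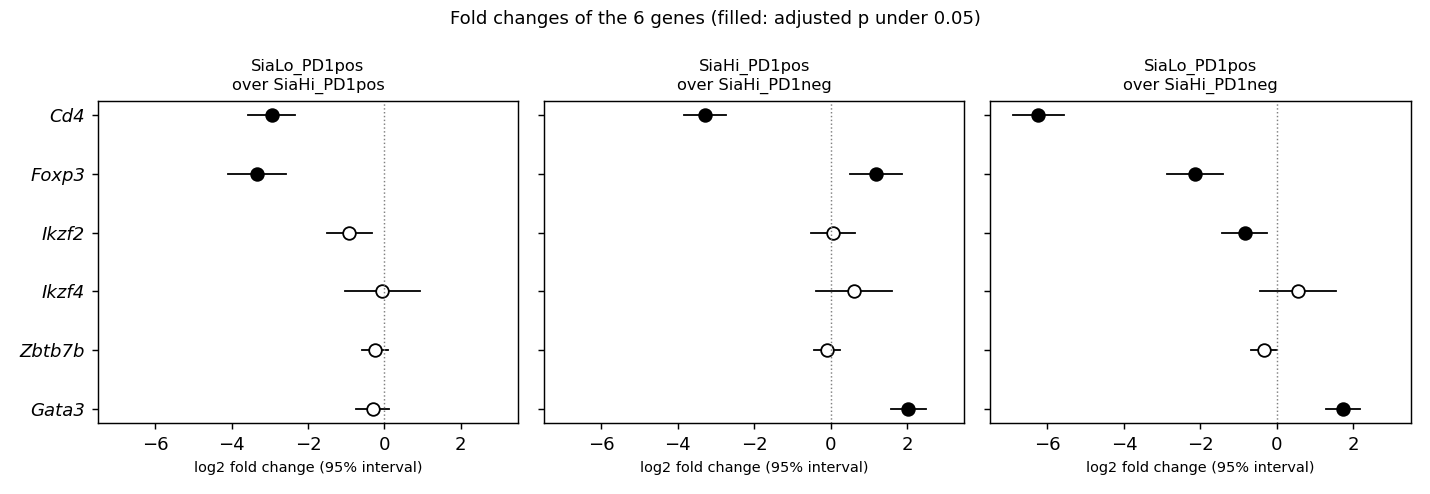
Log2 fold changes of the 6 genes from the edgeR fit (horizontal axes) in the 3 comparisons; points are estimates, lines 95% intervals, and filled points have an adjusted p under 0.05. Cd4 lies left of 0 in every panel, Foxp3 left of 0 where SiaLo_PD1pos is on top and right of 0 at 1.19 in SiaHi_PD1pos over SiaHi_PD1neg, a value that turned to -0.87 under scaling to T cell transcripts, as Gata3 turned from 2.03 to -0.084 there.

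Among the 6 genes, 4 did not overlap between SiaLo_PD1pos and SiaHi_PD1pos, each with the lower values in SiaLo_PD1pos, against 19.4% of all tested genes without overlap, 9.42% higher and 9.95% lower. Between SiaHi_PD1pos and SiaHi_PD1neg 3 did not overlap, 2 of them higher and 1 lower in SiaHi_PD1pos, against 47.5% of all tested genes, 24.1% higher and 23.5% lower. Between SiaLo_PD1pos and SiaHi_PD1neg 5 did not overlap, 1 higher and 4 lower in SiaLo_PD1pos, against 54.4%, 29.3% higher and 25.1% lower. The median log2 fold change of the 6 was -0.61 in SiaLo_PD1pos over SiaHi_PD1pos, where the median of all tested genes was -0.0063.

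The order of the genes differed between groups when levels were set per length, as TPM (counts per kilobase, set to a common total) computed from counts and exon lengths. In SiaLo_PD1pos Gata3 led at 32.1 TPM, followed by Zbtb7b at 15.3, Ikzf2 at 15.2, Ikzf4 at 3.28, Cd4 at 2.99 and Foxp3 at 1.27 TPM. In SiaHi_PD1pos Gata3 averaged 39.2 TPM, Ikzf2 29.5, Cd4 23.2, Zbtb7b 18.2, Foxp3 12.7 and Ikzf4 3.55 TPM. In SiaHi_PD1neg Cd4 stood far above the rest at 221.2 TPM, before Ikzf2 at 26.4, Zbtb7b at 18.8, Gata3 at 9.46, Foxp3 at 5.29 and Ikzf4 at 2.18 TPM. Cd4 was thus below Ikzf4 in SiaLo_PD1pos and above all others in SiaHi_PD1neg, while Foxp3 stayed within the lowest 2 throughout. The means of Zbtb7b and Ikzf2 in SiaLo_PD1pos, and those of Ikzf4 and Cd4 there, differ by less than the spread between libraries. In SiaHi_PD1pos Ikzf2 had an SD of 14.9 TPM, so its place among Gata3, Cd4 and Zbtb7b is within that spread too.

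T cell transcripts made up different shares of the libraries, so each gene was also set against the summed counts of 6 pan-T genes that encode CD3 chains and T cell receptor constant regions. Those 6 genes held 0.333% to 0.360% of counts in SiaLo_PD1pos, 0.292% to 0.373% in SiaHi_PD1pos and 0.0746% to 0.0796% in SiaHi_PD1neg. Per 1000 pan-T counts, Foxp3 averaged 0.583 in SiaLo_PD1pos, 6.29 in SiaHi_PD1pos and 11.5 in SiaHi_PD1neg. Gata3 averaged 12.8, 16.7 and 17.8 in the same order, with the PD-1− libraries between 11.5 and 21.4. Cd4 averaged 1.22, 10.0103 and 421.9, a count in SiaHi_PD1neg that reached 540.6 for every 1000 counts of the pan-T genes in replicate 2.

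Fold changes were then fitted again with libraries scaled to the pan-T counts, under which the median of all genes moved to -0.10 in SiaLo_PD1pos over SiaHi_PD1pos, -2.06 in SiaHi_PD1pos over SiaHi_PD1neg and -2.17 in SiaLo_PD1pos over SiaHi_PD1neg. Of all called genes, 4.40%, 1.92% and 1.87% were then higher, against 19.2%, 52.3% and 52.0% in the TMM-scaled fit. Cd4 and Foxp3 remained lower in SiaLo_PD1pos than in SiaHi_PD1pos, at -3.02 (adjusted p = 5.52e-04) and -3.43 (adjusted p = 0.00131). In SiaHi_PD1pos over SiaHi_PD1neg the values relative to the moved median were -3.33 for Cd4, 1.19 for Foxp3, 0.10 for Ikzf2, 0.66 for Ikzf4, -0.12 for Zbtb7b and 1.98 for Gata3. Taking off the median largely undoes the scaling, so these values fall near the TMM-scaled ones by arithmetic and are no second test. Which scaling fits cells of these groups was not tested.

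**Figure D4:**
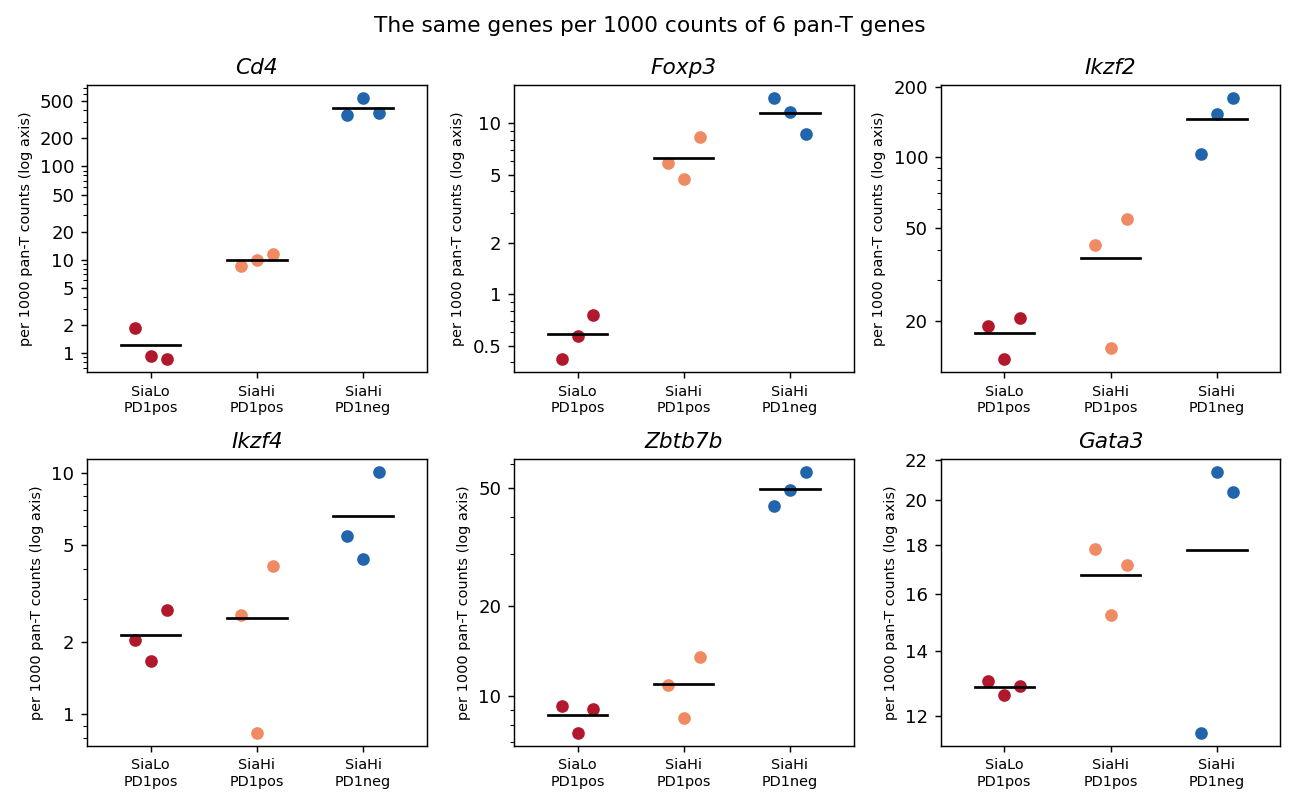
The same 6 genes per 1000 summed counts of Cd3d, Cd3e, Cd3g, Trac, Trbc1 and Trbc2 (log axes) in each library of SiaLo_PD1pos, SiaHi_PD1pos and SiaHi_PD1neg; points are libraries and bars means. On this scale Gata3 in SiaHi_PD1neg spans the levels of the PD-1+ groups, while Foxp3 stays lowest in SiaLo_PD1pos, at 0.583 against 6.29 in SiaHi_PD1pos.

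Genes of the regulatory T cell programme, a list of surface receptors, cytokines and markers that such cells are known to carry, were measured around Foxp3. In SiaLo_PD1pos 3 of 21 tested genes were lower than in SiaHi_PD1pos, against 1.13% of all tested genes, with a list median of -0.56 against -0.0063 for all genes. The count depended on the tool: 14 of the 21 had an unadjusted p under 0.05, DESeq2 called 5 lower and 1 higher, and limma-voom called 13 lower and 4 higher. Tnfrsf4 (OX40, a costimulatory receptor) averaged 56.3 ± 2.58 CPM in SiaLo_PD1pos and 121.1 ± 12.1 CPM in SiaHi_PD1pos (SD, n = 3 each). Its call held in all 9 fits without a library. Lrrc32 (GARP, which anchors latent TGF-β) averaged 7.77 and 22.5 CPM, and Il2ra (CD25, a chain of the IL-2 receptor) 75.3 and 129.0 CPM in these 2 groups. Their edgeR adjusted p-values were 0.0377 and 0.0130, and the calls were lost in 7 and 4 of 9 fits without a library and under the pan-T scaling, where the log2 fold changes were no smaller, -1.66 against -1.53 and -0.89 against -0.78 in the TMM-scaled fit. Ctla4, an inhibitory receptor that exhausted CD8+ T cells also carry, averaged 789.3 CPM in SiaLo_PD1pos and 846.7 CPM in SiaHi_PD1pos (log2 fold change -0.10, 95% interval -0.33 to 0.13).

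Against SiaHi_PD1neg, most genes of the programme were higher per library total in both PD-1+ groups, also in SiaLo_PD1pos, where Foxp3 was lower. In SiaHi_PD1pos 16 of 21 genes were higher and 3 lower than in SiaHi_PD1neg, against 21.0% and 19.2% of all tested genes. In SiaLo_PD1pos 14 were higher and 3 lower, against 20.5% and 18.9%. Under the pan-T scaling 6 were higher and 11 lower in SiaHi_PD1pos, where 1.62% of all tested genes were higher and 82.4% lower, and 3 were higher and 13 lower in SiaLo_PD1pos, where 1.6% were higher and 83.5% lower. Tigit, an inhibitory receptor, averaged 349.2 CPM in SiaLo_PD1pos, 283.8 CPM in SiaHi_PD1pos and 43.6 CPM in SiaHi_PD1neg. Tnfrsf9 (4-1BB, a costimulatory receptor) averaged 503.1, 431.0 and 40.0 CPM in that order. Both kept their direction under that scaling.

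Factors that set the CD4 and CD8 lineages were measured around Zbtb7b. In SiaLo_PD1pos 3 of 12 were lower than in SiaHi_PD1pos, against 1.13% of all tested genes. All 3 are also known from stem-like or memory T cells. Tcf7 (TCF-1, a factor of stem-like T cells) averaged 57.5 ± 11.1 CPM in SiaLo_PD1pos and 194.4 ± 24.0 CPM in SiaHi_PD1pos (SD, n = 3 each), with an edgeR adjusted p of 5.67e-05. Lef1, its relative, averaged 7.52 and 19.9 CPM and Myb 35.9 and 73.9 CPM in these groups, and their calls were lost in 3 and 5 of 9 fits without a library, that of Myb also under the pan-T scaling (-1.17, against -1.04 in the TMM-scaled fit). The list median was -0.0037. Against SiaHi_PD1neg, 6 of 12 were higher and 3 lower in SiaHi_PD1pos, beside 21.0% and 19.2% of all tested genes. In SiaLo_PD1pos 5 were higher and 5 lower, beside 20.5% and 18.9%. Tox, a factor needed for CD4 lineage development and for exhausted CD8+ T cells, averaged 483.8 CPM in SiaLo_PD1pos, 302.1 CPM in SiaHi_PD1pos and 19.3 CPM in SiaHi_PD1neg. Under the pan-T scaling 1 of 12 was higher and 11 were lower in either PD-1+ group, near the 82.4% and 83.5% of all tested genes that were lower, and Bcl11b, a T cell identity factor, turned there from 1.41 to -0.67 in SiaHi_PD1pos.

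Regulators and partners of Foxp3, among them Ikaros-family, STAT, NFAT and DNA methylation factors, were called in 0 of 16 cases in SiaLo_PD1pos against SiaHi_PD1pos by edgeR. At an unadjusted p under 0.05 there were 2, by DESeq2 0 and by limma-voom 4, while edgeR called 1.40% of all tested genes there. Against SiaHi_PD1neg 9 were higher and 1 lower in SiaHi_PD1pos, beside 21.0% and 19.2% of all tested genes. In SiaLo_PD1pos 8 were higher and 1 lower, beside 20.5% and 18.9%. Under the pan-T scaling 14 of 16 and 15 of 16 were lower in these groups, close to the 82.4% and 83.5% of all tested genes that were lower there. Ikzf3 (Aiolos), of the same family as Ikzf2 and Ikzf4, averaged 388.6 CPM in SiaLo_PD1pos, 276.6 CPM in SiaHi_PD1pos and 53.0 CPM in SiaHi_PD1neg. Its log2 fold change over SiaHi_PD1neg was 2.88 in SiaLo_PD1pos and 2.39 in SiaHi_PD1pos, of which the last lost its call under the pan-T scaling (adjusted p = 0.226).

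Genes of helper T cell subsets were measured around Gata3. In SiaLo_PD1pos 2 of 21 were lower than in SiaHi_PD1pos, against 1.13% of all tested genes, with a list median of -0.49. Both calls were lost in fits without a library, 3 of 9 for Bcl6 and 4 of 9 for Ahr. Under the pan-T scaling both also missed the threshold, though their log2 fold changes were no smaller, -1.26 against -1.13 for Bcl6 and -1.18 against -1.08 for Ahr. Bcl6, the factor of follicular helper cells, averaged 25.6 and 56.2 CPM, and Ahr, a ligand-activated factor of several helper subsets, 9.52 and 20.0365 CPM in those groups. Tbx21 (T-bet), the type 1 counterpart of Gata3 that effector CD8+ T cells also use, averaged 184.4 CPM in SiaLo_PD1pos, 151.7 CPM in SiaHi_PD1pos and 27.2 CPM in SiaHi_PD1neg, and its call in SiaHi_PD1pos was lost under the pan-T scaling (adjusted p = 0.0579). Against SiaHi_PD1neg 9 of 21 were higher and 3 lower in SiaHi_PD1pos, beside 21.0% and 19.2% of all tested genes. In SiaLo_PD1pos 8 were higher and 5 lower, beside 20.5% and 18.9%. Under the pan-T scaling those counts were 2 higher and 16 lower, and 3 higher and 18 lower, again beside 82.4% and 83.5% of all tested genes lower.

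**Figure D5:**
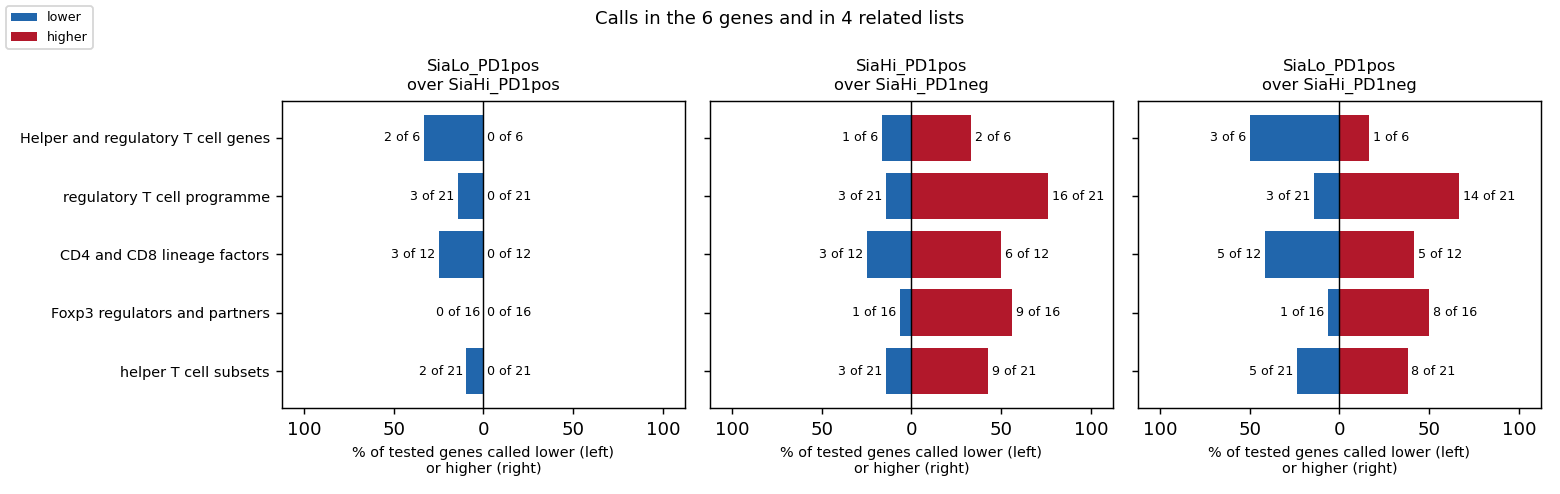
Share of tested genes called lower (to the left) or higher (to the right) among the 6 genes and in 4 related lists, in the 3 comparisons of the edgeR fit; the numbers give called over tested genes. The regulatory T cell programme has 3 of 21 lower in SiaLo_PD1pos over SiaHi_PD1pos and 16 of 21 higher in SiaHi_PD1pos over SiaHi_PD1neg, where the pan-T scaling gave 6 higher and 11 lower.

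Markers of other cells were summed beside these genes. For 7 melanoma genes the summed levels were 1558 to 3114 CPM in SiaLo_PD1pos, 794.4 to 912.8 CPM in SiaHi_PD1pos and 3709 to 7851 CPM in SiaHi_PD1neg. Of the 7, 3 were higher in SiaLo_PD1pos than in SiaHi_PD1pos, against 0.268% of all tested genes. For 10 macrophage and monocyte genes the sums were 1067 to 1342 CPM in SiaLo_PD1pos, 1246 to 2350 CPM in SiaHi_PD1pos and 3110 to 3975 CPM in SiaHi_PD1neg. For 9 genes of NK and innate lymphoid cells, some of which also use Gata3, they were 119.5 to 178.1 CPM in SiaLo_PD1pos, 134.1 to 157.8 CPM in SiaHi_PD1pos and 109.2 to 135.9 CPM in SiaHi_PD1neg, with overlap between all groups. B cell genes stepped up as Cd4 did: the 5 that passed the filter, of 8 listed, summed to 107.7 to 110.9 CPM in SiaLo_PD1pos, 230.1 to 307.3 CPM in SiaHi_PD1pos and 514.9 to 852.2 CPM in SiaHi_PD1neg. Of these 5 genes 1 was lower in SiaLo_PD1pos than in SiaHi_PD1pos, and 2 in SiaHi_PD1pos and 3 in SiaLo_PD1pos were lower than in SiaHi_PD1neg. The shares of all tested genes that were lower there were 1.13%, 19.2% and 18.9% in the same order. Between the PD-1+ groups, where Foxp3 and Cd4 were called, 0 of 10 pan-T genes were called by edgeR, 0 had an unadjusted p under 0.05, and DESeq2 called 0 and limma-voom 2. The part of these markers in the results on Cd4, Foxp3, Ikzf2 and Gata3 was not tested.

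For each of the 6 genes, the tested genes with the most similar pattern were found by Pearson's r of log2(CPM + 1) over the 9 libraries, among genes averaging at least 5 CPM. Since the libraries fall into 3 groups, r mostly reflects group means, and it is given as a description. Cd4 was followed by Rgs10 (0.994) and Csf2ra (0.992). Foxp3 was followed by Lif (0.951), Psen2 (0.925) and Tcf7 (0.919). Lif, a secreted cytokine of the IL-6 family, averaged 2.30 CPM in SiaLo_PD1pos, 21.5 CPM in SiaHi_PD1pos and 9.60 CPM in SiaHi_PD1neg. Gata3 was followed by Hopx (0.995), Ldb1 (0.994) and Mcu (0.991), and Ikzf2 by Zfp62 (0.971), Glb1l (0.954) and Sidt1 (0.948). Ikzf4 was followed by Parp4 (0.991) and Sntb1 (0.978), and Zbtb7b by Tfe3 (0.955), Arl5c (0.954) and Sulf2 (0.944).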

How the data were processed

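RNA was extracted with TRIzol and polyA RNA was sequenced as 150 bp read pairs, per the labels' protocols. The deposited table holds counts, whole reads per gene for 9 libraries, which the authors made with Trim Galore 0.6.5, STAR 2.7.6a, featureCounts 1.6.3 and GRCm38, per the submitters' processing notes. Gene coordinates in the table differ from GRCm38, so they are given as the table's own, with the build not known; exon lengths are another column of the authors' deposited table. No source used here gives the strand setting or the treatment of multi-mapping reads.

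From the counts, 15292 of 56860 genes passed edgeR's filterByExpr. They were scaled by TMM (factors 0.928 to 1.05) and tested in 1 fit of all 9 libraries with edgeR 4.0.16 (robust quasi-likelihood F test, Benjamini-Hochberg adjustment over all tested genes, threshold 0.05) in R 4.3.3. SE is the absolute log2 fold change over the square root of F. Alternatives used DESeq2 1.42.0, limma 3.58.1, other scalings and filters, a replicate block and fits without each library. Library pairs of a group differed by more than sampling noise (chi-square per degree of freedom 7.04 to 57.9); whether any came from 1 animal or pool is not given in the sources used here.

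The 6 genes and the lists around them were chosen with earlier results of these data known. From each list the 3 called genes with the smallest adjusted p per comparison could be named, plus the 6 genes, Cd3e, Cd8a, Cd8b1 and up to 3 similar genes for each member, some of which are not reported here; Siglech was named after its values were seen.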

Additional observations from a re-analysis of the deposited data

How the results depend on the processing

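Of 162 fits of the 18 values (6 genes in 3 comparisons) under 9 alternatives, 148 kept direction and side of the threshold, 9 newly passed (3 of them with a turned direction), 2 lost a call, and 8 turned direction. The 2 lost calls were those of Gata3 over SiaHi_PD1neg under the pan-T scaling, where both values turned. The scaling to pan-T counts turned SiaHi_PD1pos over SiaHi_PD1neg to -0.87 for Foxp3, -1.96 for Ikzf2, -1.40 for Ikzf4, -0.084 for Gata3, -0.67 for Bcl11b, -1.02 for Ets1, -0.55 for Uhrf1, -0.74 for Nfatc1, -0.56 for Batf, -1.24 for Lrrc32, -1.29 for Myb and -1.88 for Tcf7. It turned SiaLo_PD1pos over SiaHi_PD1neg to -1.63 for Ikzf4, -0.47 for Gata3, -0.78 for Bcl11b, -0.88 for Uhrf1, -0.62 for Nfatc1, -1.05 for Ets1, -1.15 for Batf, -0.41 for Il2ra and -0.61 for Tnfrsf4. By construction it lowers T cell-rich libraries, and it called 5 of the 6 genes, all lower, in SiaHi_PD1pos over SiaHi_PD1neg against 3 in the TMM-scaled fit, with 12849 of all genes against 6155 there and 13014 against 6029 in SiaLo_PD1pos over SiaHi_PD1neg.

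In SiaLo_PD1pos over SiaHi_PD1pos the TMM-scaled fit called 214 genes, against 535 with no filter, 456 with DESeq2, 1273 with limma-voom and 105 to 232 in fits without a library; the cause was not tested. Of the regulatory T cell programme, 3 of 21 genes were called there, against 6 with DESeq2 and 17 with limma-voom. Ikzf4 ranged there between -0.39 and 0.38 in fits without a library, with 0.056 without SiaLo_PD1pos replicate 2 and 0.38 without SiaHi_PD1pos replicate 3. Ikzf2 in SiaHi_PD1pos over SiaHi_PD1neg turned to -0.028 with at least 5 CPM in 3 libraries and ranged from -0.18 to 0.38 in fits without a library, turning without SiaHi_PD1pos replicate 3 and without SiaHi_PD1neg replicate 1. The Foxp3 to Cd4 difference (log2) between the PD-1+ groups ranged from -0.73 to 0.26, the last without SiaLo_PD1pos replicate 1.

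No label says that replicate numbers pair libraries, and only 3 of 9 same-numbered pairs correlated above 0.1 (-0.03 to 0.18, against -0.21 to 0.096 for other pairs), so they were not used as pairs. Between the PD-1+ groups each same-numbered pair (0.071, 0.18 and 0.18) correlated more than any other pair, a hint from the data and not from the design. With the replicate block the calls among the 6 genes stayed at 2, 3 and 4, those among all genes were 264, 6200 and 6105, Ikzf4 in SiaLo_PD1pos over SiaHi_PD1pos turned to 0.073 and Lrrc32 lost its call (adjusted p = 0.0543). Counts of 21 to 29 for Foxp3 in SiaLo_PD1pos limit its precision there.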
